A study of Rattus norvegicus with 8 samples.

Results

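The glucocorticoid-induced target genes described here are 35 genes that glucocorticoid hormones are known to raise in brain or other tissues. They were chosen with earlier results of these data known, and were matched to probes by gene name or accession. Of the 35, 34 had a probe on the array and 32 gave a signal that could be tested, among 18803 features tested in all. Messenger RNA was measured in hippocampi from male rats of the Sprague Dawley strain, 3 months old, that had received vehicle or Y+I for 7 days and were sampled 2 h after treatment. The sample labels give the treatment only as Y+I, and the series title names yohimbine, which blocks alpha2-adrenoceptors, and imipramine, an antidepressant that slows the uptake of serotonin and noradrenaline by their transporters. There were 4 animals in each group, each on its own 1-colour array, and all animals were of the same strain and sex with no genetic change named. Arrays of either drug alone were not analysed here, so the drugs cannot be told apart. Doses and hormone levels are not given in the sources used here.

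Glucocorticoids, mainly corticosterone in the rat, enter cells and bind the glucocorticoid receptor, which then moves to the nucleus and binds DNA at glucocorticoid response elements, inverted repeats of a short half-site. The hippocampus holds both this receptor and the mineralocorticoid receptor, which binds the same hormone with higher affinity. Target genes include transcription regulators, kinases, enzymes of fuel use, and genes that slow growth, and many of them also answer to other signals, such as cyclic AMP, cytokines, insulin or metals.

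Sequences before the start sites of the members were searched, because the receptor acts on target genes through its response element. RefSeq promoters of rat build GRCr8 were at hand for 28 of the 35 members, and 250 bases before each start were read on both strands. The full palindrome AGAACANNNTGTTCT was in 0 of the 28 and in 0.00364% of all 27457 promoters. A looser core, GNACANNNTGTNC, was in 2 of the 28, against 0.364% of all promoters. These are the stretches of the 2 members with the core, the kinase gene Map3k6 at chr5:150724034-150724106 (plus strand) and the actin-binding protein gene Fam107a at chr15:19046341-19046414 (plus strand). Capitals mark the core and, in Fam107a, also the last base of a half-site that overlaps it.
Map3k6: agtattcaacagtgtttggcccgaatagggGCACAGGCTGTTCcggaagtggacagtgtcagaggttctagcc
Fam107a: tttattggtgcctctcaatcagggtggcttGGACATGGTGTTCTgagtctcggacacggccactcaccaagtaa
The core lay 181 bases before the start in Map3k6 and 210 bases before it in Fam107a. The difference between the groups was 1.33 ± 0.35 log2 units in Map3k6 and -0.12 ± 0.21 in Fam107a, and neither passed the threshold.

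The single half-site, TGTTCT on either strand, was in 2 of the 28 promoters, Fam107a and the sulfotransferase gene Sult1a1, against 17.1% of all promoters. The E-box CACGTG was in 4 of the 28 (Bcl6, Il6r, Klf15 and Mt2A) and in 5.79% of all. The cyclic AMP response element TGACGTCA was in 0 of the 28 and in 1.70% of all. The metal response element, searched as TGCACNC or TGCGCNC, was in 9 of the 28 (32.1%) and in 21.2% of all promoters. It was most frequent before the metallothionein genes, whose products bind zinc and copper, and these are shown because metallothioneins answer both to metals and to glucocorticoids. They lie at chr19:10832994-10833181 (Mt1a, minus strand) and chr19:10838727-10838958 (Mt2A, minus strand), with metal response elements in capitals on either strand and, in Mt2A, the E-box as well.
Mt1a: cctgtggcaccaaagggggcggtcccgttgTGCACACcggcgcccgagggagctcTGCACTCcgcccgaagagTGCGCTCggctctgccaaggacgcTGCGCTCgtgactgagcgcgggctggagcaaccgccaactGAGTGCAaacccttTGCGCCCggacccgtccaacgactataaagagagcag
Mt2A: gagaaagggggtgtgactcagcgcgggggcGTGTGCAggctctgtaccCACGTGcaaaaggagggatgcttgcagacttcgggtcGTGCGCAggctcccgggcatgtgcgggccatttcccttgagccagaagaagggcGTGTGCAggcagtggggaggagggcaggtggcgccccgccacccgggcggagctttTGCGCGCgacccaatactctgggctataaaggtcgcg
Mt1a held 6 such matches and Mt2A 4, the nearest 55 bases before the start in both. Of the 7 members that rose under Y+I, Sgk1, Klf9, Cebpb and Errfi1 had no match to any of these motifs in the window, while Nfkbia and Slc2a1 each had a metal response element, 228 and 201 bases before the start. Cdo1 was not among the 28. These matches are letters in a window and not measured binding sites.

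In the hippocampus of Y+I rats, 7 members rose and 0 fell at an adjusted p under 0.05 in limma. They were the kinase gene Sgk1 (2.92-fold), the cysteine dioxygenase gene Cdo1 (2.14-fold), the NF-kappaB inhibitor gene Nfkbia (1.96-fold), the transcription factor gene Cebpb (1.91-fold), the EGF receptor inhibitor gene Errfi1 (1.81-fold), the glucose transporter gene Slc2a1 (1.77-fold) and the transcription factor gene Klf9 (1.47-fold). Over all features 0.739% rose and 1.6% fell, with 7 of the 32 members among the risers. At an unadjusted p under 0.05, 18 members were higher (56.3%) and 2 lower (6.25%), against 6.46% and 9.16% of all features. The difference was above 0 in 27 of the 32 members (84.4%), against 45.9% of all features, and the median difference was 0.50 log2 units, against -0.02 over all features. These counts include Hif3a and Sgk3, which passed the filter on dim probes through the vehicle group alone. Of the 30 members well above background on all 8 arrays, 26 differences were above 0 and the median was 0.54. All 4 Y+I animals lay above all 4 vehicle animals in 15 members and below them in 2 (Pik3r1 and Txnip), and the groups overlapped in the other 15. Of all features, 5.04% lay wholly above and 6.65% wholly below. Since the members were chosen with earlier results of these data known, these contrasts with all features are not independent evidence.

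Signals are given below as log2 units relative to the 75th percentile of the array, which is 0 on this scale, and a difference is the Y+I mean minus the vehicle mean, with its standard error from limma. Means carry the SD over 4 animals. Levels of different genes cannot be ranked on this scale, because probes differ in brightness. In whole tissue, fewer cells of a type and less RNA per cell cannot be told apart.

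Transcription regulators made up 9 of the tested members, all with a difference above 0 (median 0.54), and 3 of them rose. Nfkbia encodes the inhibitor that holds NF-kappaB in the cytoplasm. Its signal was -0.41, -0.01, -0.08 and -0.20 in vehicle animals 1 to 4 and 1.34, 0.52, 0.43 and 0.90 in Y+I animals 1 to 4. Every Y+I animal lay above every vehicle animal, with animal 1 the highest and animals 2 and 3 close together. The mean rose from -0.17 ± 0.17 to 0.80 ± 0.42, a difference of 0.97 ± 0.20 (adjusted p = 0.0446). Cebpb encodes a transcription factor of metabolism and inflammation. It was at 1.86, 1.61, 1.28 and 1.43 in the vehicle animals and at 2.39, 2.69, 2.14 and 2.69 in the Y+I animals. The groups did not overlap, and Y+I animals 2 and 4 were the highest. Its difference was 0.93 ± 0.17 (adjusted p = 0.0298). Klf9 encodes a Krüppel-like factor that is a direct target of the receptor in neurons. It gave 1.70, 1.53, 1.42 and 1.65 under vehicle and 2.31, 2.07, 2.04 and 2.09 under Y+I. Here 3 Y+I animals lay within a narrow band and animal 1 above them, all clear of the vehicle animals, and the SD was 0.13 under vehicle and 0.12 under Y+I. The difference was 0.55 ± 0.11 (adjusted p = 0.0351).

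The 6 other transcription regulators did not pass the threshold. Cebpd, a relative of Cebpb, was at 1.79, 1.51, 0.99 and 1.25 under vehicle and at 2.28, 1.93, 2.02 and 2.37 under Y+I. All 4 Y+I animals were above all vehicle animals, with a 1.70-fold difference (adjusted p = 0.0772). Bcl6, a transcriptional repressor gene, also had groups that did not overlap, with a difference of 0.46 ± 0.13 (adjusted p = 0.111). Tsc22d3 encodes GILZ, an anti-inflammatory protein often used as a marker of glucocorticoid action. It was at 2.48, 2.21, 2.53 and 2.43 under vehicle and at 2.90, 3.40, 2.50 and 2.99 under Y+I. Y+I animal 3 fell within the vehicle range, the other 3 lay above it, and the difference was 0.54 ± 0.18 (adjusted p = 0.183). Klf15 (0.32), Zbtb16 (0.24) and Hif3a (0.13) had overlapping groups. Hif3a stood above background on only 2 Y+I arrays.

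Kinases and signalling proteins numbered 11, with 7 differences above 0, a median of 0.18 and 2 that rose. Sgk1 encodes a kinase that regulates ion channels and transporters. Its signal was -1.03, -0.58, -0.90 and -0.60 in vehicle animals 1 to 4 and 1.26, 0.68, 0.14 and 0.99 in Y+I animals 1 to 4. The lowest Y+I animal, animal 3, was still above the highest vehicle animal. The mean went from -0.78 ± 0.22 to 0.77 ± 0.48, the largest difference of any member at 1.55 ± 0.23 (adjusted p = 0.0143). Errfi1 encodes a protein that binds and inhibits EGF receptors. It was at 1.31, 1.67, 1.49 and 1.47 under vehicle and at 2.78, 2.15, 1.98 and 2.45 under Y+I. Again no animals of the groups overlapped and Y+I animal 3 was the lowest of its group, with a difference of 0.86 ± 0.17 (adjusted p = 0.0430).

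Map3k6, a kinase of stress signalling, had a large difference that did not pass the threshold. Its values were -2.84, -3.39, -3.76 and -3.44 under vehicle and -1.24, -1.73, -2.96 and -2.21 under Y+I. Y+I animal 3 lay below vehicle animal 1, and the other 3 were above the vehicle range. The difference was 1.33 ± 0.35, or 2.51-fold (adjusted p = 0.101). Nedd9, a scaffold protein gene of cell adhesion, had groups that did not overlap and a difference of 0.45 ± 0.13 (adjusted p = 0.138), but its other probe differed by -0.09. Mertk (0.21), Rhob (0.18), Il6r (0.12), Fam107a (-0.12) and Tgm2 (-0.22) had overlapping groups, and the other probe of Rhob differed by 0.55.

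Pik3r1 encodes the regulatory subunit of PI3-kinase, which carries insulin signals. It was at -0.42, -0.56, -0.59 and -0.54 in the vehicle animals and at -1.75, -1.06, -0.76 and -0.69 in the Y+I animals. The vehicle animals lay close together and every Y+I animal was below them, animal 1 by the widest margin. The difference was -0.54 ± 0.21 (adjusted p = 0.266). Sgk3, a relative of Sgk1, was measured above background on 4 vehicle arrays and only 1 Y+I array, so the size of its difference of -0.48 is uncertain, and it was 0.22 with normexp background correction.

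Among the 7 genes of fuel and metabolism, 5 could be tested, all with a difference above 0 (median 0.82), and 2 rose. Cdo1 encodes the enzyme that oxidises cysteine on the way to taurine. Its signal was -2.78, -2.25, -2.28 and -2.36 under vehicle and -1.39, -1.12, -1.25 and -1.52 under Y+I. The groups were far apart for their spread, and animal 3 was not the lowest here. The mean rose from -2.42 ± 0.25 to -1.32 ± 0.17, a difference of 1.10 ± 0.15 (adjusted p = 0.00969), the smallest adjusted p of any member. Slc2a1 encodes GLUT1, the glucose transporter of the blood-brain barrier and of glia. It was at 1.91, 1.80, 1.73 and 1.68 in vehicle animals and at 2.64, 2.86, 2.10 and 2.81 in Y+I animals. Y+I animal 3 stood below its group but above all vehicle animals, and the difference was 0.82 ± 0.17 (adjusted p = 0.0430).

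Gpd1, a glycerol-3-phosphate dehydrogenase gene induced by glucocorticoids in oligodendrocytes, did not pass the threshold. It was at 2.32, 2.07, 1.41 and 2.26 under vehicle and at 3.26, 3.08, 2.49 and 2.80 under Y+I. The groups did not overlap, and animal 3 was the lowest in both groups. The difference was 0.89 ± 0.23, or 1.85-fold (adjusted p = 0.101). Angptl4, whose product inhibits lipoprotein lipase, was at 0.21, 0.30, 0.24 and -0.19 under vehicle and at 0.98, 1.06, 0.42 and 0.59 under Y+I. All Y+I animals were above the vehicle range, with a difference of 0.63 ± 0.17 (adjusted p = 0.116). Sult1a1 had a difference of 0.47 (adjusted p = 0.163), and its groups overlapped through Y+I animal 3. Pdk4, which restrains glucose oxidation, was well above background on 0 of the 8 arrays and has no value here, and no probe was matched to the lipid-droplet gene Plin4.

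The arrestin-fold genes, relatives that act in glucose uptake and receptor trafficking, pointed in different directions. Arrdc2 was at -1.56, -1.89, -1.98 and -1.82 under vehicle and at -0.59, -1.44, -0.996 and -1.24 under Y+I. No animals overlapped, and the difference was 0.75 ± 0.18 (adjusted p = 0.0852). Txnip, whose product binds thioredoxin and limits glucose uptake, was at -2.37, -2.50, -2.69 and -2.50 under vehicle and at -2.82, -2.76, -3.03 and -3.19 under Y+I. Every Y+I animal was below every vehicle animal, with a difference of -0.44 ± 0.12 (adjusted p = 0.118). Neither passed the threshold. Arrdc3 was well above background on 3 vehicle and 2 Y+I arrays and was not tested.

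The 5 genes of growth arrest and stress had differences above 0 (median 0.59), and 0 of them passed the threshold. Sesn1, a stress gene whose product restrains the growth kinase mTORC1, was at -2.40, -2.47, -2.64 and -2.64 under vehicle and at -1.504, -2.35, -1.39 and -1.82 under Y+I. The groups did not overlap, with Y+I animal 2 nearest to the vehicle animals, and the difference was 0.77 ± 0.20 (adjusted p = 0.0964). Ddit4, another mTORC1 inhibitor gene and a widely used glucocorticoid marker in brain, was at 1.59, 1.61, 1.45 and 1.53 under vehicle. Under Y+I it was at 2.86, 1.63, 1.89 and 2.16, a wide spread with animal 2 just above the vehicle range. The difference was 0.59 ± 0.23 (adjusted p = 0.260) and 0.43 by its other probe.

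The metallothioneins shown above overlapped between the groups. Mt1a was at 1.58, 0.81, 1.10 and 1.08 under vehicle and at 2.19, 2.05, 0.67 and 2.31 under Y+I. Y+I animal 3 was the lowest of all 8 animals while the other 3 were above every vehicle animal, and the difference was 0.66 ± 0.35 (adjusted p = 0.410). Mt2A was at 3.79, 3.78, 3.69 and 4.03 under vehicle and at 4.40, 4.56, 3.15 and 3.99 under Y+I. Animal 3 was again the lowest of the 8, and the difference was 0.21 ± 0.28 (adjusted p = 0.778), or 0.03 by its other probe. Cdkn1a, the cell cycle inhibitor p21, differed by 0.03 by its brighter probe and by 0.82 by a dimmer one, so its probes disagree.

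**Figure D1:**
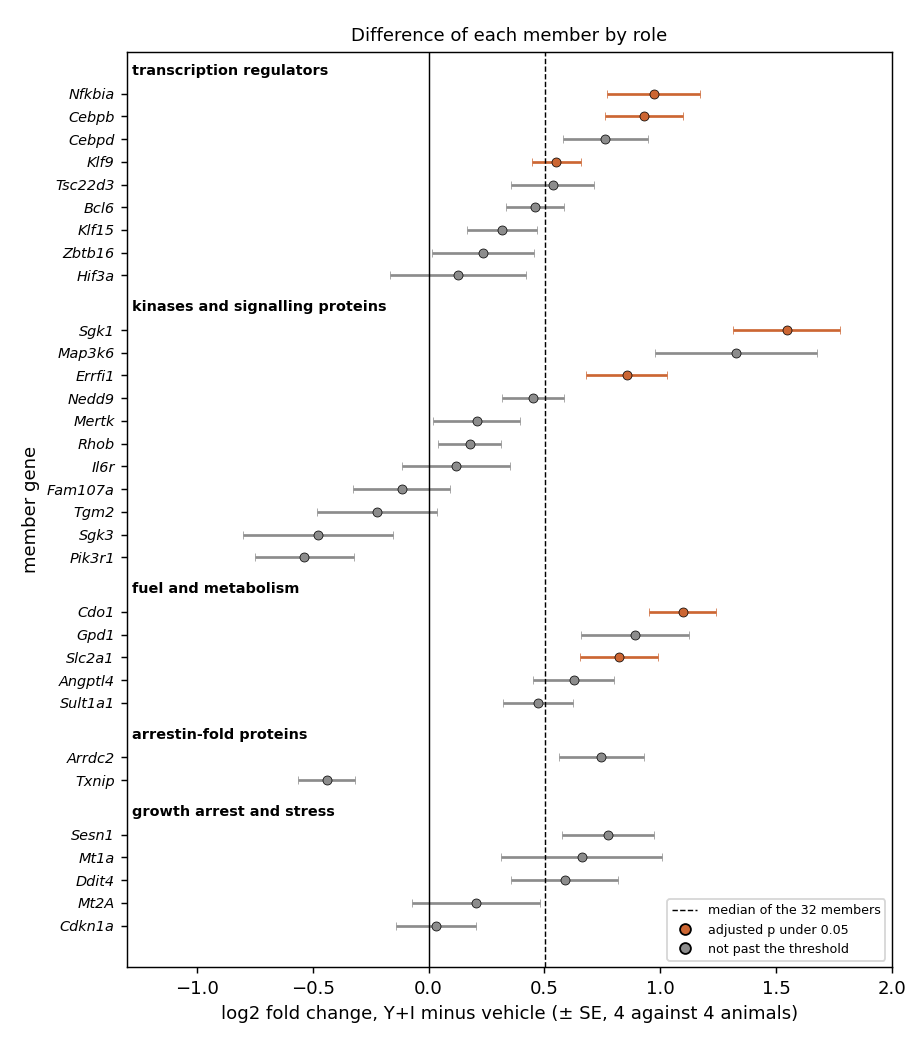
Difference between the groups for the 32 tested members, grouped by role. The horizontal axis is the log2 fold change, Y+I minus vehicle, points are the estimates with standard errors from limma (4 against 4 animals), orange marks the 7 members past the threshold, and the dashed line is the median of the members at 0.50; 5 members lie left of 0.

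**Figure D2:**
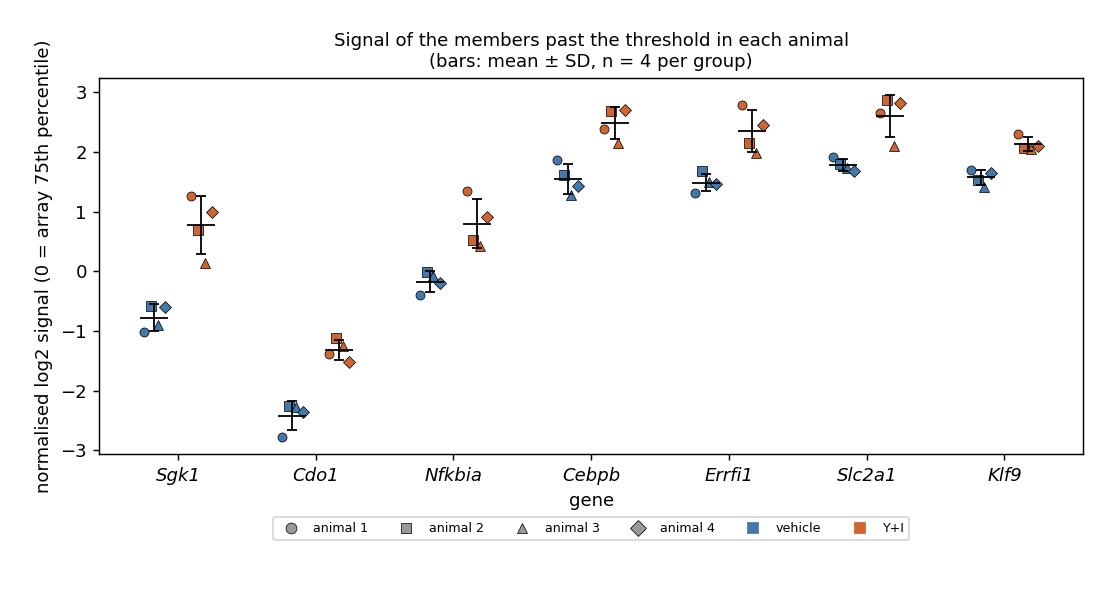
Signal of the 7 members past the threshold in every animal. The vertical axis is log2 signal relative to the 75th percentile of the array, marker shapes are animals 1 to 4, colours are the groups, and bars are mean ± SD with n = 4; no Y+I animal overlaps a vehicle animal in any of the 7, and animal 3 is the lowest Y+I animal in 6 of them.

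The members differed between single Y+I animals as well as between groups. When each member was set against its vehicle mean, the median over the 32 members was 0.65, 0.50, 0.27 and 0.59 in Y+I animals 1 to 4. Over all features the same medians were -0.01, -0.04, -0.06 and 0.04. In the vehicle animals the member medians were 0.08, 0.05, -0.10 and -0.02, so every Y+I animal stood above every vehicle animal and animal 3 stood nearest to them. Y+I animal 3 had the lowest signal of its group for 18 of the 32 members (56.3%), against 33.8% of all features, and the highest for 1. Animal 1 had the highest signal for 13 members (40.6%), against 19.7% of all features. Animal 4 was the highest for 10 (31.3%, against 31.0% of all features), and animal 2 was the highest for 8 (25% against 28.2%) and the lowest for 10 (31.3% against 32.8%), shares near those of all features. For the 7 members that rose, the medians were 1.03, 1.08, 0.60 and 1.03.

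Among the vehicle animals, animal 1 was the highest for 16 of the 32 members (50%, against 26.1% of all features) and animal 3 the lowest for 17 (53.1% against 26.1%). The spread of these member medians in the vehicle group, from -0.10 to 0.08, was narrower than in the Y+I group, from 0.27 to 0.65, and the SD over all features was smaller under vehicle as well. No correlation across the 8 animals is given, because they form separate groups of 4. The share of spots well above background was 64.4% in Y+I animal 3, 65.3% in animal 2, 70.9% in animal 1 and 74.8% in animal 4. In vehicle animal 3 it was 78.1%. The part of this share in the place of each animal was not tested.

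**Figure D3:**
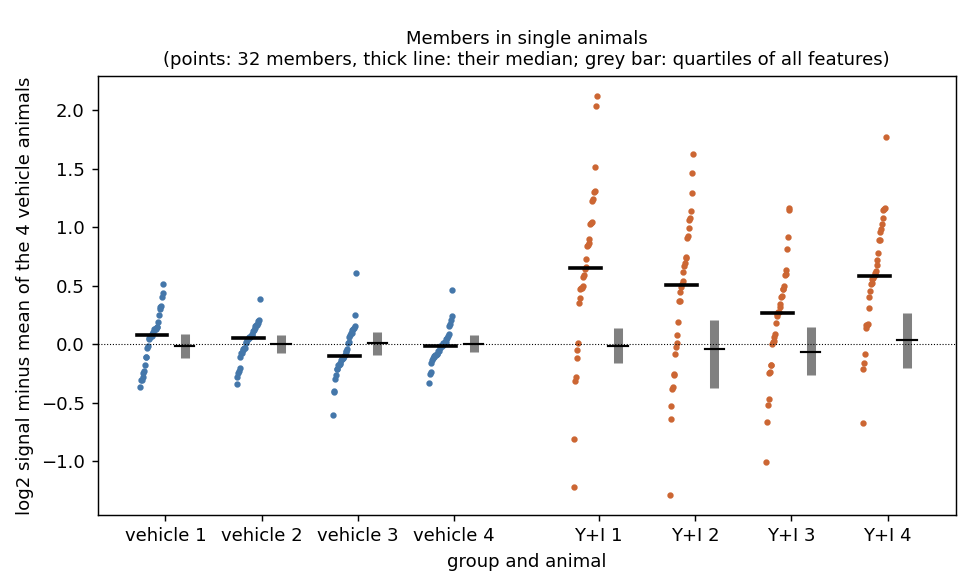
Members in single animals. The vertical axis is the log2 signal of a gene minus the mean of the 4 vehicle animals, each point is 1 of the 32 members, the thick line is their median, and the grey bar spans the quartiles of all features in that animal; the member medians of the Y+I animals run from 0.27 in animal 3 to 0.65 in animal 1, and those of the vehicle animals from -0.10 to 0.08.

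Which members passed the threshold depended on single arrays. Sgk1 and Cdo1 passed in all 8 fits that each left out 1 array, with a highest adjusted p of 0.0478 (without vehicle animal 1) and 0.0420 (without vehicle animal 4). Cebpb passed in 2 of these fits, without vehicle animal 1 or without Y+I animal 3, and its adjusted p ran from 0.0231 to 0.101. Errfi1, Nfkbia and Slc2a1 passed only without Y+I animal 3 and reached 0.134, 0.138 and 0.142 without vehicle animal 4. Klf9 passed in 0 of the 8, with adjusted p between 0.0507 and 0.104. The count of members that rose was 9 without Y+I animal 3, and 3 without vehicle animal 1 or Y+I animal 2. It was 2 without vehicle animal 2, 3 or 4, or without Y+I animal 1 or 4. Without Y+I animal 3, 0.601% of all features rose, and in the other fits with 1 array left out 0.175% to 0.526%. With all arrays, the count was 12 members with normexp background correction, where 2.13% of all features rose, and 12 with array weights, where 1.13% rose. It was 13 with no filter on dim probes, where 12.6% of all features rose, so the background was higher there too. The median difference over the members moved less, from 0.45 to 0.60 over the 8 fits that left out 1 array. With Y+I animals 2 and 3 both left out, an alternative chosen after the data were seen, 5 members rose. They were Errfi1, Nfkbia, Sesn1, Sgk1 and Slc2a1, while Cdo1 had an adjusted p of 0.0630.

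**Figure D4:**
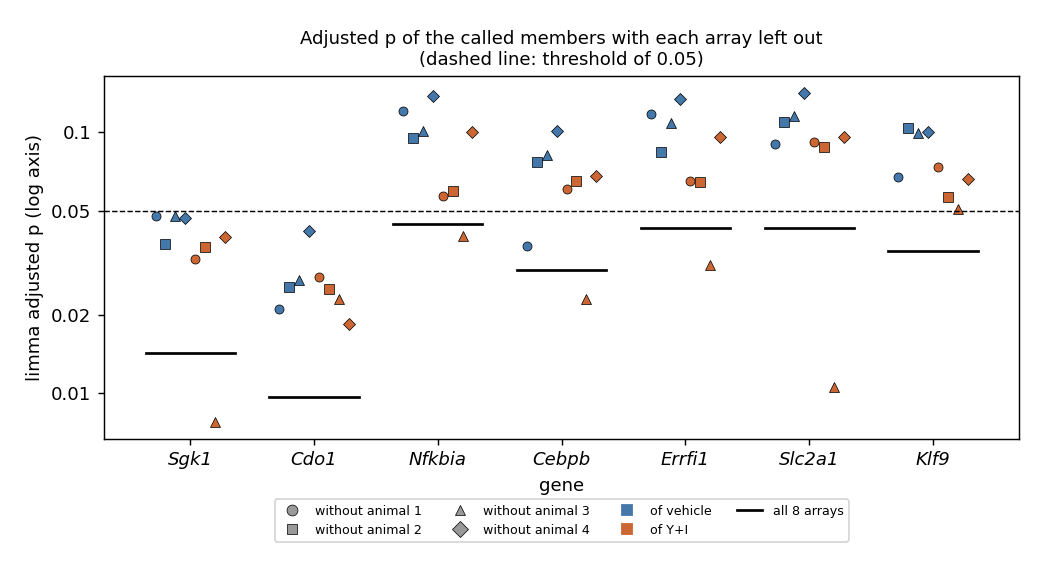
Adjusted p of the 7 members past the threshold when each array was left out. The vertical axis is the limma adjusted p on a log axis, shapes are the animal left out and colours its group, black bars are the values with all 8 arrays, and the dashed line is the threshold of 0.05; all points of Sgk1 and Cdo1 lie below it, and 0 of those of Klf9 do.

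Other genes of the pathway were read from lists of the receptor's handling, further induced genes and repressed genes. Of 12 genes of the receptor and its handling, 2 rose and 0 fell, with a median difference of -0.01. The mineralocorticoid receptor gene Nr3c2 rose by 0.62 ± 0.11 (adjusted p = 0.0246), and Fkbp5, whose product lowers the hormone affinity of the receptor and which is itself induced by glucocorticoids, rose by 0.57 ± 0.10 (adjusted p = 0.0298). The glucocorticoid receptor gene Nr3c1 differed by -0.10 ± 0.14 (adjusted p = 0.788). Hsd11b1, whose product regenerates active corticosterone, differed by -0.06 ± 0.13 (adjusted p = 0.885). Hsd11b2 differed by -0.77 ± 0.21 (adjusted p = 0.113), with every Y+I animal below every vehicle animal. It was well above background on only 1 Y+I array, so the size of its difference is uncertain.

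Of 13 tested genes among 14 further induced ones, 1 rose and 0 fell, with a median of 0.19. It was Rasd1, a small G protein gene also known as dexamethasone-induced Ras 1, which rose by 0.88 ± 0.12 (adjusted p = 0.0095). The gene of next smallest p, Ndrg2, differed by -0.28 ± 0.10 (adjusted p = 0.181), with every Y+I animal below every vehicle animal. The clock gene Per1 differed by -0.10 ± 0.22 (adjusted p = 0.878) and the MAP kinase phosphatase gene Dusp1 by 0.26 ± 0.40 (adjusted p = 0.810), so these early glucocorticoid targets overlapped between the groups. Per1 was well above background on only 3 Y+I arrays, so the size of its difference is uncertain. Of 8 tested genes among 9 that glucocorticoids repress, 0 passed the threshold and the median was 0.10. The smallest p was that of Nr4a1, at 0.46 ± 0.15 (adjusted p = 0.169), with every Y+I animal above every vehicle animal. Next came the interleukin gene Il1b at 0.75 ± 0.29 (adjusted p = 0.246) and Fos at -0.61 ± 0.27 (adjusted p = 0.325). Il1b was well above background on only 3 Y+I arrays, which leaves the size of its difference uncertain too. The corticotropin-releasing hormone gene Crh followed at -0.24 ± 0.13 (adjusted p = 0.429).

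The arrays carried 58717 noncontrol spots each, of which 76.4% to 79.7% were well above background under vehicle and 64.4% to 74.8% under Y+I. The median SD of a feature was 0.134 log2 units under vehicle and 0.239 under Y+I, and precision is limited by having 4 arrays in a group. The 8 arrays came from 1 slide read in 1 scan, and since vehicle and Y+I occupied different rows of it, the row and the treatment cannot be told apart. In each row the slide column was the same as the animal number. Of the cell type markers, 0 of 8 astrocyte, 0 of 8 oligodendrocyte, 0 of 8 endothelial, 0 of 5 mural and 0 of 7 microglial genes passed the threshold. Their summed linear levels, where 1 is the 75th percentile of the array, ran from 77.1 to 85.4 under vehicle and 75.9 to 94.3 under Y+I for astrocytes, and from 14.5 to 15.1 and 12.5 to 14.6 for endothelium. Lower under Y+I were 3 of 7 meningeal genes (summed 3.20 to 4.19 against 2.06 to 2.74) and 2 of 2 tested red cell genes (15.1 to 17.5 against 6.54 to 10.46), as well as 1 of 7 thalamic and 1 of 5 striatal genes. Higher were 1 of 3 tested mast cell genes, 1 of 7 thalamic genes and 1 of 10 hippocampal neuron genes. Differences were above 0 in 3 of 7 thalamic (median -0.32), 0 of 5 striatal (median -0.60) and 6 of 10 hippocampal genes (median 0.33). The hippocampal markers were well above background on all vehicle arrays. Of them, Prox1 and Dsp were so on only 2 Y+I arrays and Spink8 on 3. The neutrophil genes S100a8 and S100a9 differed by 2.18 and 2.08 without passing, with low values in Y+I animal 3 as in the vehicle animals. Both were well above background on only 3 Y+I arrays, so the sizes of these 2 differences are uncertain. The part of these cell types in the differences of the members was not tested.

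The probes of the members that rose lie on rat build rn4, as the files give them, without stating which part of the transcript they cover. They are at chr1:23501718-23501777 for Sgk1, chr18:40921357-40921416 for Cdo1 and chr6:75730438-75730497 for Nfkbia. Cebpb is read at chr3:158827761-158827820, Errfi1 at chr5:168025720-168025779, Slc2a1 at chr5:139718779-139718838 and Klf9 at chr1:226445625-226445684.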

How the data were processed

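Cy3-labelled hippocampal RNA of 8 rats was hybridised to 1-colour Agilent rat arrays, per the labels' protocols. The deposited scanner files hold spot intensity values from Agilent Feature Extraction 10.5.1.1, background-subtracted and not normalised between arrays, per the file headers. A table of log2 values of these arrays was also deposited; its centring is not stated, so it was used as an alternative alone.

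The values used were log2 of the processed intensity minus the 75th percentile of each array. Spots marked as outliers were left missing. Of 30367 probes, 21370 were kept, those marked well above background in every array of at least 1 group, for 50% or more of their spots. The signal of a dim probe near background can be a surrogate value, which makes its difference uncertain. The brightest kept probe stood for each gene, named through RefSeq (GRCr8). Groups come from the sample titles. They were compared with limma 3.58.1 in R 4.3.3 (lmFit and eBayes, two-sided, Benjamini-Hochberg over 18803 features, threshold 0.05), with the procedure tested on simulated data. Full values are given for members past the threshold or with a difference of at least 1.5-fold; others named, such as Pik3r1 and Txnip, were singled out after their values were seen. Members and lists were chosen with earlier results of these data known, so their direction is not independent evidence. Alternatives covered background correction, normalisation, filters, probe summary, array weights, a replicate block and each array left out. Replicates are separate animals per the labels. Figures were drawn with matplotlib 3.10.9.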

Additional observations from a re-analysis of the deposited data

Results flagged for a closer look

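Among 64 sets of 4 values (32 members in 2 groups), Dixon's test marked 2 animals as far from the rest of their group, where chance marks about 5% of such sets. Mt1a, the metallothionein gene, was at 0.67 in Y+I animal 3 while the other 3 Y+I animals lay between 2.05 and 2.31. Sult1a1, the sulfotransferase gene, was at -0.84 in vehicle animal 3 while the other 3 vehicle animals lay between -0.70 and -0.67.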

How the results depend on the processing

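The count of members that rose, 7 with the settings used, was 12 with normexp background correction, 13 with no filter on dim probes (Pdk4, not well above background on any array, among them) and 12 with array weights. Of all features, 0.739% rose with the settings used and 2.13%, 12.6% and 1.13% with these, and risers made up 31.7% of all calls against 66.4%, 86.5% and 35%. Normexp put the median difference of all features at 0.09. The count was 3 with the animal number as a replicate block, namely Cdo1, Map3k6 and Sgk1, where 0.181% of all features rose. Over all features, same-numbered animals correlated at 0.05, -0.11, -0.04 and 0.04 in their deviations from the group means. Among the 32 members, however, animal 1 was most often the highest (for 16 under vehicle and 13 under Y+I). Animal 3 was most often the lowest (for 17 and 18). Same-numbered animals also shared a column of the slide, so whether the numbers pair the animals is not settled. The count of risers was 5 to 7 under quantile normalisation, median centring, the value table, the stricter filter and the mean of probes, and 2 to 9 with 1 array left out. The count that fell was 0 in each of these fits, and the median difference stayed between 0.45 and 0.60. Some members that did not pass the threshold changed sign. Cdkn1a was at -0.054 with normexp and -0.0060 with quantile normalisation, Sgk3 at 0.22 with normexp, and Hif3a at -0.11 with array weights. With 1 array left out, Cdkn1a ran from -0.14 to 0.13, Hif3a from -0.13 to 0.30, Fam107a from -0.29 to 0.058, Il6r from -0.048 to 0.32 and Tgm2 from -0.41 to 0.041. Without Y+I animals 2 and 3, chosen after the data were seen, Fam107a was at 0.18, Il6r at -0.10 and Tgm2 at 0.073. The lower share of spots above background in Y+I limits dim members such as Hif3a and Sgk3. The causes of these changes were not tested.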
